A study of Homo sapiens with 2 samples.

Results

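A set of 10 cell-surface proteins used to phenotype leukaemia were followed at the transcript level in MEG-01 cells, namely CD34, CD38, CD33, CD44, CD47, CD99, CD7, PROM1 (CD133), ENG (CD105) and ANPEP (CD13). The genes were chosen by name, and every probe set annotated to 1 of them alone was taken, which left 9 of the 10 among 19775 genes with such a probe set. MEG-01 is a BCR-ABL-positive megakaryoblastic line from chronic myeloid leukaemia (CML). In the GAS2DN group the cells carried a lentivirus for a truncated, dominant negative GAS2 followed by Venus, a yellow fluorescent protein, and in the Venus group a control lentivirus. The transgene was driven by the spleen focus forming virus promoter, and both groups were sorted for transduced cells. RNA from 3 extracts per group was pooled in equal amounts, and each pool was hybridised to 1 Human Genome U133 Plus 2.0 array, so there was no replicate of a group and no test could be made.

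Surface antigens are read by flow cytometry to place leukaemic cells on the haematopoietic tree. CD34 marks stem and progenitor cells and is the antigen by which CML progenitors are enriched, CD38 appears as progenitors commit, and PROM1 and ENG are also found on primitive cells. CD33 and ANPEP mark myeloid cells and CD7 marks T cells and some myeloid leukaemias. CD44 binds hyaluronan and anchors leukaemic stem cells in their niche, CD47 tells macrophages not to engulf a cell, and CD99 takes part in leukocyte migration and is high on some leukaemic stem cells. The comparison asks which of these transcripts had another signal in cells that carried the truncated GAS2.

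Of the 10 genes 9 had a probe set of their own, 32 probe sets in all, and CD33, the sialic acid-binding receptor of myeloid cells, is not analysed here because it had none. A probe set was called eligible when the brighter of its 2 signals reached the median of its array, which was 69.1 for GAS2DN and 55.6 for Venus. This held for 18 of the 32 probe sets. A gene was represented by its main probe set, its brightest one by the mean of both log2 values, and _x_at probe sets, which can share probes with other transcripts, were used for this only where a gene had no other kind. By this rule 7 of the 10 genes were measured, while CD38 and PROM1 had a probe set but no eligible one.

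The 7 measured antigens had a median log2 ratio of GAS2DN to Venus of 0.03, and all 13086 measured genes had 0.06. The signal was higher in GAS2DN cells for 4 of the 7 and lower for 3, against 56.2% higher among all measured genes. Only CD34 was more than 2-fold apart, with a lower signal in GAS2DN cells, and no main probe set was over 2-fold higher. Among all measured genes 4.45% were over 2-fold lower and 7.91% over 2-fold higher. With 7 genes a count of 1 or 0 does not stand apart from these shares.

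Counted by probe sets, 4 of the 18 eligible ones were over 2-fold higher in GAS2DN cells, against 8.51% of 24840 eligible probe sets of all genes, and 1 was over 2-fold lower, against 6.07%. At the 3-fold threshold of the study 3 were higher and 0 were lower, against 4.96% and 3.36%. The 4 higher ones belonged to CD44, with 3, and CD7, with 1. The 3 of CD44 were eligible only through the GAS2DN array, where they were high, so these counts are a description. Where both signals had to reach the median 1 was over 2-fold higher and 0 were over 3-fold higher. The share of all genes' probe sets was not counted under that filter. Probe sets of 1 gene read the same transcripts and are not independent. In 13 of the 18 the GAS2DN signal was the higher one, and this was so in 54.6% of all eligible probe sets. After centring on the median of all probe sets it was so in 11 of the 18, against 42.03%.

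**Figure D1:**
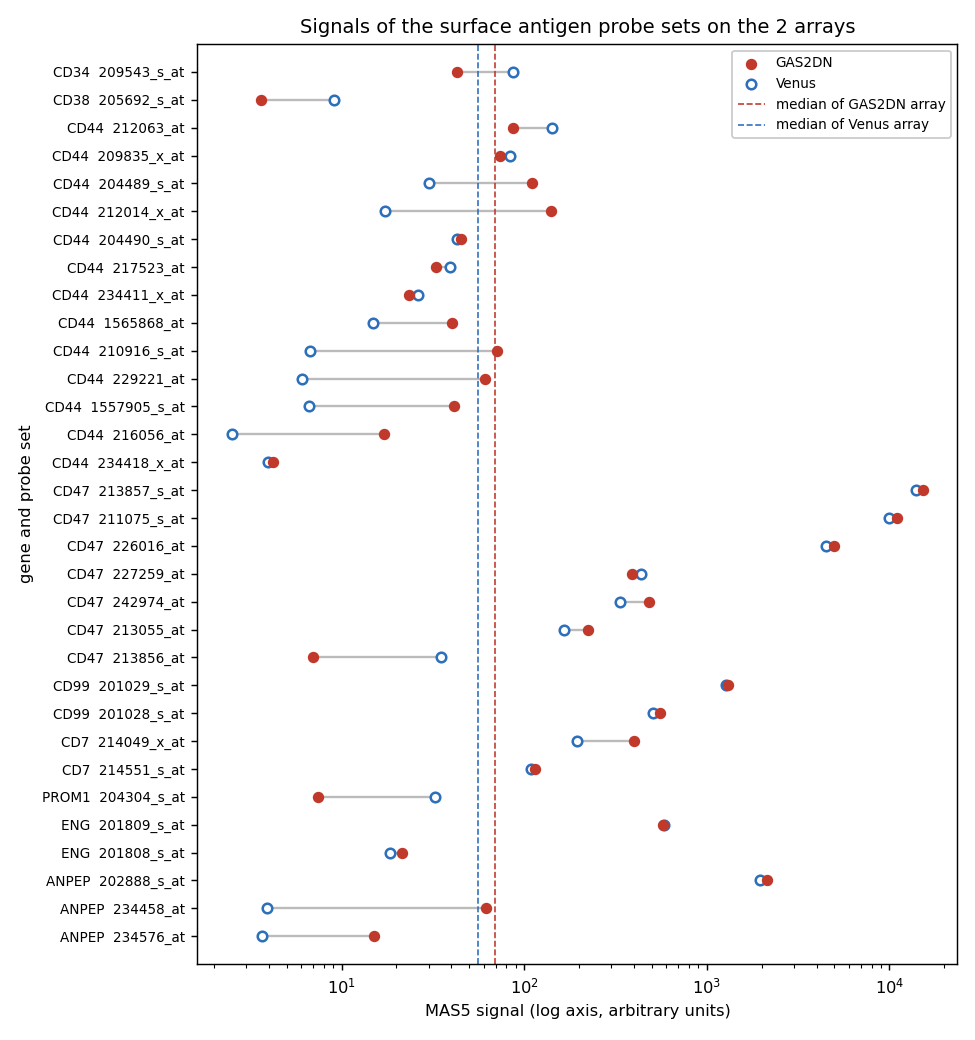
MAS5 signal (log axis, arbitrary units) of the 32 probe sets of 9 surface antigen genes in GAS2DN (filled red) and Venus cells (open blue), with the median of each array as a dashed line. Grey lines join the pair of signals, which lie close together for the probe sets right of the medians and far apart for many to the left of them.

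Large ratios went with dim probe sets. Both signals were at or above the array medians in 14 of the 32 probe sets, from 6 genes, and 12 of these 14 (85.7%) were within 1.5-fold, as were 84.8% of 20496 such probe sets of all genes. Their log2 ratios ran between -0.70 and 1.03. Another 14 were below the median on both arrays, with ratios between 0.199 and 16, and 9 of these were over 2-fold, 6 higher and 3 lower in GAS2DN cells. The other 4 probe sets reached the median on 1 array only, and all 4 were over 2-fold apart. The share over 2-fold among all genes' probe sets of these kinds was not counted, so these counts are a description.
As a description of spread, each log2 ratio was set beside the middle 95% of the probe sets in the same twentieth of mean log2 signal, over all genes. This range mixes real differences with noise and is not an error of 1 probe set. For dim probe sets it was wide, such as -3.63 to 4.64 for 234458_at of ANPEP. The range held 30 of the 32 log2 ratios and missed 2 (6.25%), both of _x_at probe sets, 212014_x_at of CD44 and 214049_x_at of CD7.

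**Figure D2:**
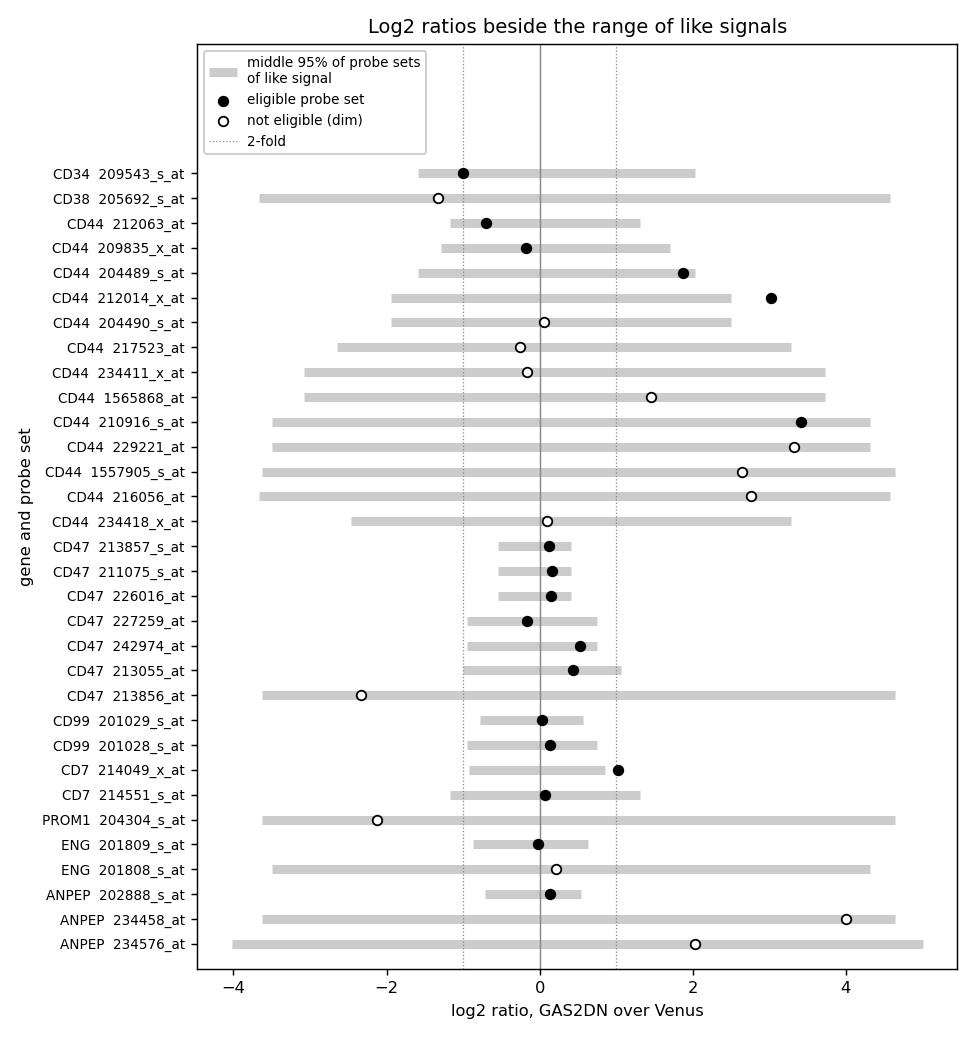
Log2 ratio (GAS2DN over Venus) for the 32 probe sets (filled points eligible, open points not eligible), with grey bars for the middle 95% of all single-gene probe sets of like signal and dotted lines at 2-fold. The points of 212014_x_at of CD44 and 214049_x_at of CD7 lie right of their bars and the other 30 lie inside them.

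CD34, the sialomucin of stem and progenitor cells, was read by 1 probe set, 209543_s_at, with a signal of 43.1 in GAS2DN cells and 86.6 in Venus cells. Its log2 ratio was -1.01, a ratio of 0.498. In GAS2DN cells this was below the array median and in Venus cells above it. Probe sets of like signal spanned -1.58 to 2.03, and no second probe set of CD34 was at hand. With signals below the median raised to it the log2 ratio was -0.33.
The part of the CD34 promoter before the transcription start, from RefSeq in GRCh38.p14 at chr1:207911126-207911375 on the minus strand, is printed to show the regulatory sequence of the one measured antigen over 2-fold apart by its main probe set, with GC boxes (GGGCGG or its reverse complement) in capitals.
CD34: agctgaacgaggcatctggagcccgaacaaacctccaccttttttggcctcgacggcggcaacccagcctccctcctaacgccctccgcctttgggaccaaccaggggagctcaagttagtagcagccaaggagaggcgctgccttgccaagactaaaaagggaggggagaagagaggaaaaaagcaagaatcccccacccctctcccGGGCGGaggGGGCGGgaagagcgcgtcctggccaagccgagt

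PROM1, a pentaspan protein of membrane protrusions used to sort stem cells, had a signal of 7.47 in GAS2DN cells and 32.7 in Venus cells in its 1 probe set, 204304_s_at. CD38, the ectoenzyme that turns NAD into cyclic ADP-ribose, had 3.61 in GAS2DN cells and 9.06 in Venus cells in 205692_s_at. Their log2 ratios were -2.13 and -1.33, and all 4 signals were below the array medians. Probe sets as dim as these spanned -3.63 to 4.64 for PROM1 and -3.67 to 4.58 for CD38, and both log2 ratios lay inside these ranges.
ENG, a co-receptor of the TGF-beta family, had 577 in GAS2DN cells and 586 in Venus cells in its main probe set 201809_s_at, a log2 ratio of -0.02. Its other probe set, 201808_s_at, had 21.4 in GAS2DN cells and 18.4 in Venus cells, below both medians. ENG was thus read near equal in both, and its bright probe set had signals above 79.3% of those on its array in each group.

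ANPEP, the aminopeptidase N of myeloid cells, had 2142 in GAS2DN cells and 1949.8 in Venus cells in 202888_s_at, a log2 ratio of 0.14. Its other 2 probe sets were dim. In 234458_at the signal was 62.2 in GAS2DN cells and 3.89 in Venus cells, a ratio of 16, and in 234576_at it was 15.0 in GAS2DN cells and 3.65 in Venus cells, a ratio of 4.10. Both stayed below the medians of the arrays, and with low signals raised to the median both had a log2 ratio of 0.31, which is the difference between the medians themselves. Both lay inside the range of probe sets as dim.

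CD7, an immunoglobulin-family receptor of T cells, had 114 in GAS2DN cells and 109 in Venus cells in its main probe set 214551_s_at, a log2 ratio of 0.07. In 214049_x_at it had 397 in GAS2DN cells and 195 in Venus cells, a log2 ratio of 1.03, a ratio of 2.04. This was the only one of the 32 probe sets that was over 2-fold with both signals above the median, and probe sets of like signal spanned -0.92 to 0.85. The CD7 probe sets thus gave different answers, near equal in the one and 2.04-fold in the other, and which transcripts each reads was not tested.

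CD44 had the most probe sets, 13, and these differed widely among themselves, with an SD of 1.57 for the log2 ratio over all 13 and of 1.86 over the 5 eligible ones. The main probe set 212063_at had 86.7 in GAS2DN cells and 141 in Venus cells, a log2 ratio of -0.70. In 209835_x_at the signals were 73.6 in GAS2DN cells and 83.2 in Venus cells, a log2 ratio of -0.18. These were the only CD44 probe sets with both signals above the medians, and in both the GAS2DN signal was the lower one.
The other 3 eligible probe sets went the other way. In 212014_x_at the signal was 141 in GAS2DN cells and 17.3 in Venus cells, a log2 ratio of 3.03, and probe sets of like signal spanned -1.94 to 2.50. In 210916_s_at it was 71.4 in GAS2DN cells and 6.70 in Venus cells, a log2 ratio of 3.41. In 204489_s_at it was 110 in GAS2DN cells and 30.0 in Venus cells, a log2 ratio of 1.88. Raised to the median, their Venus signals left log2 ratios of 1.34, 0.36 and 0.98 for the 3.
Of all 13, 7 were over 2-fold higher in GAS2DN cells. Each of these 7 had a Venus signal of 30.0 or less, below the median, with GAS2DN signals of up to 141. In 4 of the 7 both signals were below the medians. Only 5 of the 13 were eligible, and the share of all genes' probe sets over 2-fold higher without the filter was not counted. The 7 are thus a description. The remaining 6 had log2 ratios between -0.70 and 0.09, and none was over 2-fold lower. CD44 is spliced into a standard form and many variant forms, and the annotation used here does not say which exons each probe set reads, so a difference between forms was not tested.
Low signals on 1 array went with large ratios outside these genes too. Among probe sets of all genes with a Venus signal of 10 or less 59.7% of 8162 were over 2-fold higher in GAS2DN cells, and among those with a GAS2DN signal of 10 or less 44.1% of 6649 were over 2-fold lower, where choosing on a low value favours each direction. Of the antigen probe sets 6 of 8 and 3 of 4 were so.
The CD44 promoter before the transcription start, at chr11:35138921-35139170 on the plus strand of GRCh38.p14 (RefSeq), is given because its eligible probe sets pointed both ways, again with GC boxes in capitals.
CD44: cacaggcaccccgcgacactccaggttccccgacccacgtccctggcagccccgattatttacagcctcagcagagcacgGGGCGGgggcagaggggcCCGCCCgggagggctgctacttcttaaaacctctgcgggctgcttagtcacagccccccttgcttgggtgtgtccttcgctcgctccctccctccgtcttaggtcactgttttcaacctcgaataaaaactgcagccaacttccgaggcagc

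**Figure D3:**
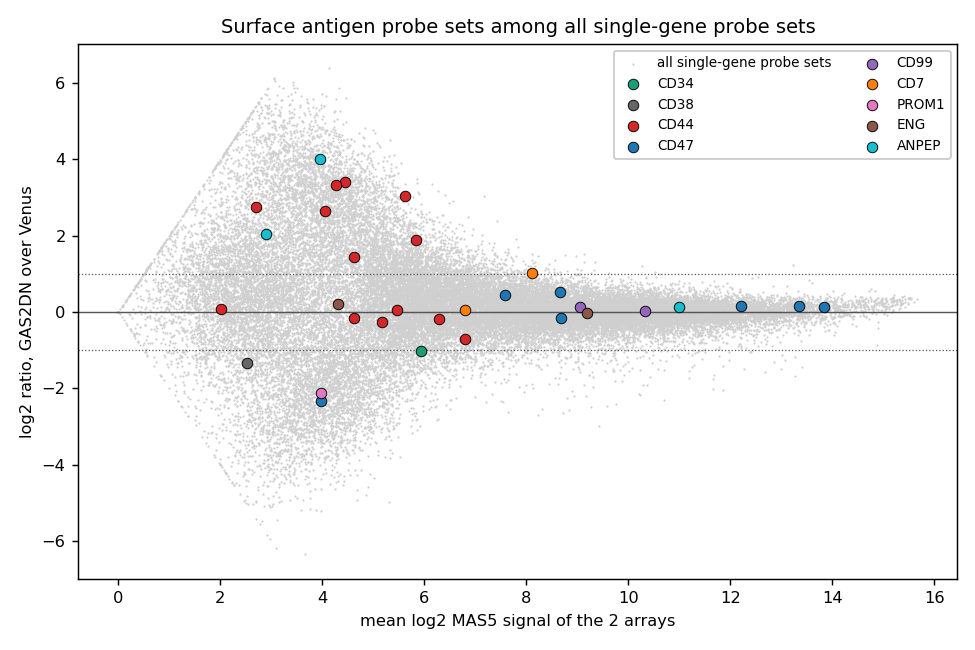
Log2 ratio (GAS2DN over Venus) against the mean log2 MAS5 signal of the 2 arrays for 41091 single-gene probe sets (grey) and those of the surface antigens (coloured by gene), with dotted lines at 2-fold. The spread widens towards low signals, where 7 CD44 probe sets lie above the upper dotted line. CD47, CD99, ENG and ANPEP probe sets with a mean over 8 lie between the dotted lines.

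CD47, the ligand of the inhibitory macrophage receptor SIRP-alpha, had 6 eligible probe sets of 7, and both signals of all 6 were above the medians. In 213857_s_at the signal was 15279.8 in GAS2DN cells and 14012 in Venus cells, in 211075_s_at it was 11064 in GAS2DN cells and 9919.8 in Venus cells, and in 226016_at it was 4997 in GAS2DN cells and 4516 in Venus cells. The log2 ratios of these 3 were 0.12, 0.16 and 0.15, and probe sets of like signal spanned -0.55 to 0.41. The next 3 had log2 ratios of -0.16 in 227259_at, 0.53 in 242974_at and 0.44 in 213055_at. CD47 was thus read within 1.5-fold by every eligible probe set, with ratios of 0.893 to 1.44. The seventh, 213856_at, was dim, with 6.98 in GAS2DN cells and 35.1 in Venus cells.
CD99, a small glycoprotein of the cell surface, had 1302 in GAS2DN cells and 1276 in Venus cells in 201029_s_at, and 554 in GAS2DN cells and 505 in Venus cells in 201028_s_at. The log2 ratios were 0.03 and 0.13, so both of its probe sets were near equal.
The CD47 promoter before the transcription start, at chr3:108091032-108091281 on the minus strand of GRCh38.p14 (RefSeq), is shown as that of an antigen with bright and near equal signals, with GC boxes in capitals.
CD47: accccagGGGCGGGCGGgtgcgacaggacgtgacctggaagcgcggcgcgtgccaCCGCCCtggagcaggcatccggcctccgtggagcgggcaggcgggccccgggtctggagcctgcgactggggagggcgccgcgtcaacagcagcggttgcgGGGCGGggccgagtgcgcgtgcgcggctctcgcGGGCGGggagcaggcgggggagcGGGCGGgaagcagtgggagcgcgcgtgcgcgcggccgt
Upstream sequences of 250 bases were found for 9 of the 10 genes, CD7 being the other. A GC box was found on either strand in 6 of the 9, against 42.3% of 27305 upstream sequences of the same length, and matches that overlap were counted each, 2 in CD34, 2 in CD44 and 6 in CD47. The number of CpG was 14, 15 and 39 in these 3. Over the 9 genes it ran between 2 and 39 with a median of 14, and the median over all sequences was 11. The letters CCAAT, on either strand as for all motifs here, were found in 2 of the 9, against 33.0%. None of the 9 held the GATA factor letters AGATAA, which 9.37% of all sequences hold. The letters TGTGGT of RUNX factors (10.9%), CAACTG of MYB (9.10%), CCGGAAG of ETS factors (8.82%) and TATAAA of the TATA element (11.1%) were likewise found in 0 of the 9. A match is a string of letters and not a bound site.

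Other genes of leukaemia phenotyping and partners of the antigens were taken from lists. A list is described by its measured genes, with a ratio from the main probe set. Stem and progenitor antigens had 6 measured genes, 4 higher and 2 lower, with a median log2 ratio of 0.17, and none was over 2-fold. KIT, the receptor of stem cell factor, had 0.33 and IL1RAP, an antigen of CML stem cells, -0.04, with -1.24 in its other probe set. The main probe sets of FLT3, IL3RA (CD123) and DPP4 (CD26) were below the medians on both arrays. Myeloid and monocyte antigens had 7 measured, 5 higher and 2 lower, with a median of 0.44, where CD4 was over 2-fold higher and CSF3R over 2-fold lower, each with 1 signal below the median. The other probe set of each went the opposite way, with -2.67 against 1.01 in the main one for CD4 and 1.35 against -2.98 for CSF3R. CD14, the co-receptor of lipopolysaccharide, had 4.48 in GAS2DN cells and 5.13 in Venus cells.
Lymphoid antigens had 8 measured, 6 higher and 2 lower, with a median of 0.21. CD22, an inhibitory receptor of B cells, was the one over 2-fold, with -1.82 and a GAS2DN signal below the median. With low signals raised it had -0.32. Its other 3 probe sets lay between -0.81 and 2.40, and 2 of these 3 were lower too. Megakaryocyte and erythroid antigens had 11 measured and all 11 were higher, with a median of 0.37, against 56.2% higher among all measured genes. SLC4A1, the band 3 anion exchanger, alone was over 2-fold, with 138 in GAS2DN cells and 11.7 in Venus cells, a log2 ratio of 3.56 that was 1.31 with low signals raised and -3.65 in its other probe set. ITGA2B (CD41), the platelet integrin subunit, had 0.37 and GP9 (CD42a) 0.22. The median signal was 1.24 times as high on the GAS2DN array as on the Venus array. After centring on the median ratio the 13109 measured genes had a median of -0.06 in place of 0.06, and 9 of the 11 megakaryocyte and erythroid genes were higher, the exceptions being GP1BA and CD9. All 11 stayed higher after loess or quantile scaling.

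Ligands and partners of the antigens had 25 measured genes, 18 higher and 7 lower, with a median of 0.17. Those over 2-fold were SECTM1, a ligand of CD7, with 99.8 in GAS2DN cells and 4.05 in Venus cells, a log2 ratio of 4.62, and SIRPG, a receptor of CD47 on T cells, with 15.6 in GAS2DN cells and 57.0 in Venus cells, a log2 ratio of -1.87. One signal of each was below its array median. With such signals raised they had log2 ratios of 0.84 and 0.28. The other probe set of SIRPG went the opposite way, with 1.71, and SECTM1 had no other. The main probe set of SIRPA, which encodes SIRP-alpha, was below the median on both arrays. Its other 2 probe sets, dimmer by mean signal, had log2 ratios of 2.57 and 3.29. The genes named next were picked by role after their values were seen. The TGF-beta receptors that work with ENG had log2 ratios of 0.03 for TGFBR1, 0.17 for TGFBR2, 0.26 for BMPR2 and 0.86 for TGFBR3. The other probe set of TGFBR3 had -0.61, and the main probe set of ACVRL1 was below both medians. The SMAD proteins of the list, which carry signals of this family, had -0.45 for SMAD1, -0.23 for SMAD5 and -0.47 for SMAD4. The proteins that tie CD44 to actin had 0.09 for EZR, 0.15 for RDX and -0.33 for MSN. The other probe sets of BMPR2, SMAD4, SMAD5, EZR and RDX lay on both sides of 0, and that of MSN had 1.04. Of these TGFBR1 and EZR fell below 0 with the arrays centred.
Paralogues of the antigens had 16 measured genes, 8 higher and 8 lower, with a median of -0.07. XG, the blood group antigen related to CD99, had 71.6 in GAS2DN cells and 6.43 in Venus cells, a log2 ratio of 3.48, which was 0.36 with low signals raised and -0.05 in its other probe set. ERAP1, an aminopeptidase of the ANPEP family that trims peptides, had 418 in GAS2DN cells and 1056 in Venus cells, a log2 ratio of -1.34 with both signals above the median, but 0.13 to 0.57 in its other 4 probe sets. PROM2, the paralogue of PROM1, had 103 in GAS2DN cells and 254 in Venus cells, a log2 ratio of -1.30, though 0.07 in the highest of its other 4 probe sets and -3.06 in the lowest. It falls outside the naming rule and was chosen after its values were seen. Factors known to regulate CD44 splicing had 10 measured genes, 5 higher and 5 lower, with a median of -0.01 and none over 2-fold. Their direction turned with the scaling, since 1 was higher after centring and 3 after loess or quantile scaling.

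**Figure D4:**
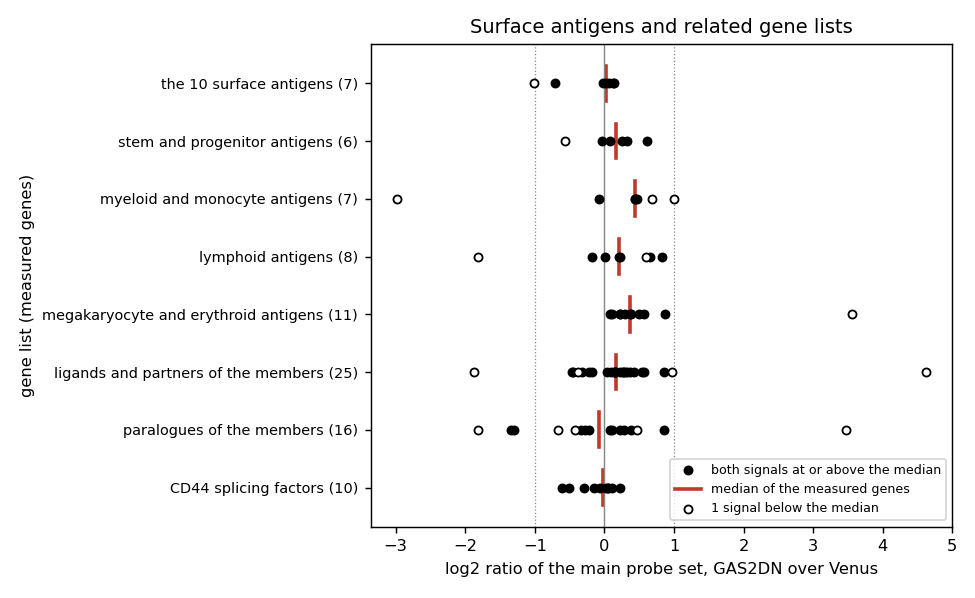
Log2 ratio (GAS2DN over Venus) of the main probe set for each measured gene of the surface antigens and of 7 related lists, with the number measured in brackets. Points are filled where both signals reached the median and open where 1 did not, and red bars are medians, which lie between -0.07 and 0.44.

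Some facts of the arrays bear on these values. GAS2 itself, the targeted gene, had 34.7 in GAS2DN cells and 24.3 in Venus cells in its 1 probe set, both below the medians, and whether this probe set reads the truncated transgene is not given in the sources used here. Of 12 megakaryoblast markers with a probe set 9 were measured, and the signals summed over the main probe sets of all 12 were 23529 in GAS2DN cells and 19484 in Venus cells, while PF4, PPBP and VWF were below both medians. Of 5 T cell markers 2 were measured (CD2 and CD5) and CD3D, CD3E and CD3G were below both medians. Signals summed over the 5 were 358 in GAS2DN cells and 202 in Venus cells. The largest part was CD5, with 174 and 97.6 and a log2 ratio of -1.54 in its other probe set. Sums in GAS2DN and Venus cells were 370 and 221 for endothelial markers and 280 and 292 for B cell markers. They were 366 and 365 for monocyte markers and 190 and 185 for fibroblast markers. A sum mostly reflects its brightest probe sets, such as LYZ for monocytes, with 259 and 275. Fibroblast markers went both ways, with 111 and 41.0 for COL1A2 and 1.86 and 42.1 for COL3A1. Both pools were of 1 cell line, MEG-01, sorted for transduced cells, and what the CD7 signal reads was not tested. In bulk RNA fewer cells with an antigen and less RNA per cell cannot be told apart, and the arrays read transcripts, not protein at the cell surface.

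The direction of most measured antigens rested on small differences. CD47 and ANPEP kept a positive log2 ratio under every alternative in which they were measured, between 0.0037 and 0.16 for CD47 and between 0.01 and 0.15 for ANPEP. CD34 was lower in GAS2DN cells under all 7 alternatives that measured it, between -1.31 and -0.33. It has 1 probe set, which passed the filter only through the Venus array, where it was the higher. Without a filter and by the median over eligible probe sets its value of -1.01 could not differ from the reported one. The shared direction is thus a description. CD44 turned to 1.88 when the median of its eligible probe sets was taken in place of the main one. Of these 5 probe sets 3 were eligible only through the GAS2DN array, where they were high, so this value is a description. CD99 turned to -0.09 after centring, and CD7 turned to -0.06, -0.11 and -0.13 after centring, loess and quantile scaling. ENG turned to 0.01 in 1 alternative.

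**Figure D5:**
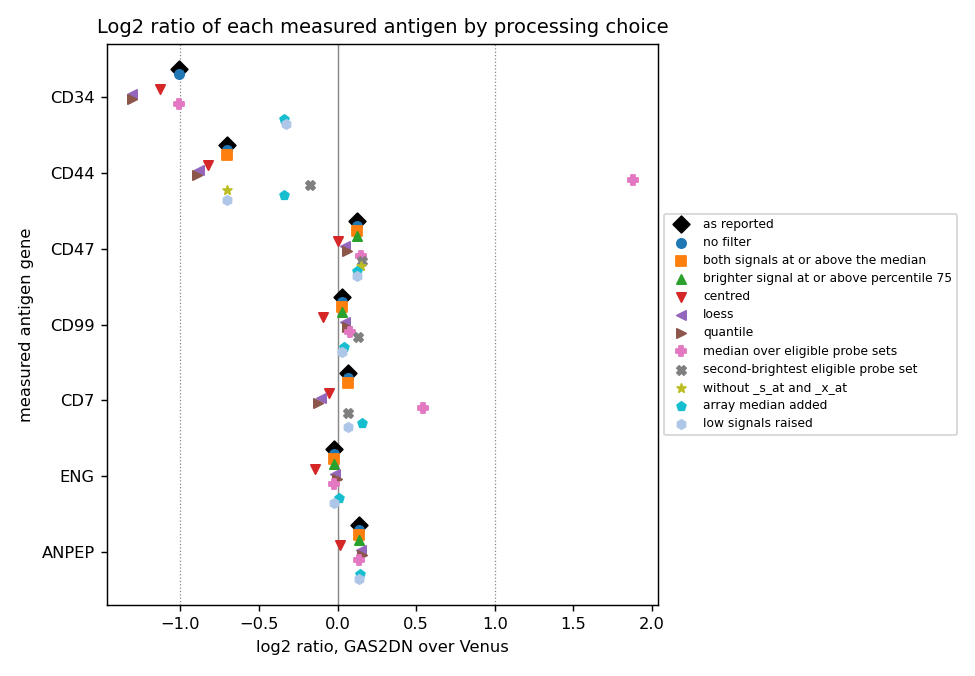
Log2 ratio (GAS2DN over Venus) for each of the 7 measured antigens as reported (black diamonds) and under the other processing choices (coloured symbols), with dotted lines at 2-fold. CD44 spans -0.90 to 1.88, CD34 stays below 0, and CD47, CD99, ENG and ANPEP stay within 0.16 of 0.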

How the data were processed

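RNA of GAS2DN and Venus MEG-01 cells, pooled from 3 extracts per group, was read on 1 array per group. The authors deposited log2 MAS5 signals (version not given in the sources used here), scaled to a 2% trimmed mean signal of 500.1 on both arrays, with no detection calls. The 54675 probe sets hold 62 controls, and by the platform annotation 41091 were for 1 gene, 1801 for more than 1 and 11721 had no gene. Only those of 1 gene were used. For 41037 of them the symbol was taken from RefSeq (GRCh38.p14) through the gene identifier, whether or not it changed. The other 54 kept the symbol of the platform annotation. Log2 ratios are GAS2DN minus Venus signals on the log2 scale. Signals of different probe sets are not comparable as transcript levels. The number of arrays limits the precision. Members and lists were chosen with earlier results of these data known. Named were all antigens and, of each list, the 2 highest and 2 lowest genes over 2-fold. Every other list gene named was picked by role after its values were seen. The loess used a span of 0.2 and 3 iterations. Steps were tested on simulated data with the same noise at every signal, so the wide spread of dim probe sets was not covered. The tools were Python 3.11.15, statsmodels 0.14.6, numpy 2.4.6, scipy 1.17.1, matplotlib 3.10.9 and pandas 2.3.3. The scaling of related lists was tried as an alternative chosen after seeing the data.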

Additional observations from a re-analysis of the deposited data

How the results depend on the processing

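With 1 array per group no error can be given for a ratio, and values below the array median limit what can be read. The median log2 ratio of the measured antigens stayed between -0.28 and 0.14 under the 11 alternatives and was below 0 in 5 of them, among them all 3 scalings. The count of eligible probe sets over 2-fold higher, 4 as reported, was 10 without a filter, 1 where both signals had to reach the median and where the brighter had to reach percentile 75, 2 with low signals raised and 0 without _s_at and _x_at probe sets. The count over 2-fold lower, 1 as reported, was 4 without a filter and 0 under these other choices and with the array median added. Over 3-fold higher, 3 as reported, it was 8 without a filter and 0 under the same other choices, and over 3-fold lower, 0 as reported, it was 2 without a filter. By genes, 1 was over 2-fold higher (CD44) by the median over eligible probe sets, where 0 were as reported. Of the 5 eligible probe sets of CD44 3 had passed the filter only through the GAS2DN array, where they were high. Over 2-fold lower was 1 gene (CD34) as reported, 3 without a filter, which adds CD38 and PROM1, and 0 where both signals had to reach the median, at percentile 75, by the second-brightest probe set, without _s_at and _x_at probe sets, and with the array median added or low signals raised. Stricter filters and leaving out probe sets leave fewer to count. The shares of all genes and of their probe sets over these thresholds were counted for the reported setting only. The counts under the alternatives are thus a description. The other causes were not tested.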
